A study of Mus musculus with 50 samples.

Results

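The genes described here are 9 members of the NRF2 antioxidant pathway, found by name in the gene count tables of 38 RNA-seq libraries. They are the regulators Nfe2l2 and Keap1 and the target genes Nqo1, Hmox1, Gclc, Gclm, Txnrd1, Srxn1 and G6pdx, that is 9 of 24984 genes counted. All 9 had reads in every library, with a lowest count of 71. RNA was measured in the kidney and liver of untreated C57BL/6 mice aged 2.5 months (young) or 23 to 25 months (old), with 4 libraries in each of these groups. Open chromatin was mapped by ATAC-seq, in which the Tn5 transposase cuts accessible DNA, in the same tissues and ages with 3 libraries per group. A separate RNA-seq set held kidney and liver of C57BL/6 mice aged 20 to 21 months that were given DMSO, a solvent, or an agent labelled 3C, with 4 libraries per group, and C57BL/6 skin fibroblasts labelled P9 with DMSO or 3C, with 3 libraries per group. The labels do not say what 3C or P9 stands for, and they give no dose or duration. In the study's methods the young and old mice were female, and the sex of the others is not stated.

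NRF2, the product of Nfe2l2, is a transcription factor that switches on genes against oxidants and reactive chemicals. In unstressed cells the adaptor KEAP1 holds it and hands it to a ubiquitin ligase for destruction, and oxidants or electrophiles modify KEAP1 so that newly made NRF2 reaches the nucleus. There it pairs with small MAF proteins on antioxidant response elements (AREs), DNA sites whose core partly matches the site bound by AP-1. The targets supply glutathione, thioredoxin reduction, NADPH, quinone reduction and heme breakdown, and both liver and kidney use them heavily in detoxification.

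The libraries held 14.2 to 43.7 M gene counts. Marker sums matched the labelled sources: 7 kidney tubule markers summed to at least 14374 CPM (counts per M gene counts) in every kidney library and to at most 16.0 CPM in any other, 6 hepatocyte markers to at least 69838 CPM in every liver library, and 7 fibroblast markers to at least 17015 CPM in every fibroblast library. Old kidney replicate 2 stood apart, with 3733 CPM of hepatocyte markers where the other kidney libraries had 153 to 303 CPM. The labels do not tie libraries to animals or cultures, so the p-values measure the spread between libraries, which may be technical. The untreated set and the DMSO and 3C set are set side by side and were not tested against each other. The tissues were whole, so that fewer cells of a type and less RNA per cell cannot be told apart.

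Open regions around 7 of the 9 genes carried ARE cores, and 4 windows at Hmox1, Gclc and Gclm are shown because they hold such cores, were open in every ATAC-seq library and lie outside transcribed sequence. The core searched was TGACNNNGC on both strands, printed in capitals, in windows of 1 length centred on the strongest peak summit. The coordinates are GRCm38, each line reads in the direction of its gene, and the 4 windows were open in 12 of 12 libraries. The window 9.7 kb before the Hmox1 start, at chr8:75083849-75084049, held 3 cores, and the window 3.9 kb before it, at chr8:75089606-75089806, held 2.
Hmox1, 9.7 kb upstream: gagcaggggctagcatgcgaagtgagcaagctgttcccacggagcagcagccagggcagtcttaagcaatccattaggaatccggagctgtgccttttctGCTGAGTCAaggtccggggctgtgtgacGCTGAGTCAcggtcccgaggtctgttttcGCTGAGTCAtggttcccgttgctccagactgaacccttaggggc
Hmox1, 3.9 kb upstream: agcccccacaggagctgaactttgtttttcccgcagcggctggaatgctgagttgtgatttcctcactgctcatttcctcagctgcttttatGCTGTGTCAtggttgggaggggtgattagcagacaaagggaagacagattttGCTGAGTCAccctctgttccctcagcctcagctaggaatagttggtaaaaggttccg
The window 3.8 kb before Gclc, at chr9:77750680-77750880, and the window 0.2 kb before Gclm, at chr3:122245307-122245507, held 1 core each.
Gclc, 3.8 kb upstream: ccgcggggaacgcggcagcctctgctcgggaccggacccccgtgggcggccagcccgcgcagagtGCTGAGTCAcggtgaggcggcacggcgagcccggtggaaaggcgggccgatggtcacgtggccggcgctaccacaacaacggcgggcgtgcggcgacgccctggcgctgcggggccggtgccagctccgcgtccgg
Gclm, 0.2 kb upstream: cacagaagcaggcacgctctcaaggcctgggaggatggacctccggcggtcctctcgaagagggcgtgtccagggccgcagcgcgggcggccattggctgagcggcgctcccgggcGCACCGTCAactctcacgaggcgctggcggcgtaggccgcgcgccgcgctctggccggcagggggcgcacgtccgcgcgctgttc
The AP-1 core TGANTCA shared bases with 3 of 3 ARE cores in the Hmox1 window at 9.7 kb, with 1 of 2 at 3.9 kb and with the Gclc core, and with none in the Gclm window. In all, 16 of 75 regions around the 9 genes that were open in at least 3 libraries held a core (21.333%), against 10.457% of 141632 such regions genome-wide. In the RefSeq promoter table (GRCm38.p6; 250 bases before to 50 after a start), 7 of the 9 genes had an entry, and 5 of these held a core in at least 1 entry, namely Nfe2l2, Srxn1, Gclm, Txnrd1 and G6pdx, against 13.991% of 27025 genes. A match to these letters describes the sequence and is not a measurement of binding.

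The regulators come first, and the panels of CPM by library show every value. Nfe2l2, on chromosome 2 from 75675513 to 75704641, stood at 131 ± 8.14 CPM (SD, n = 4) in young kidney and 150 ± 15.4 CPM in old kidney. Its young liver libraries were at 66.5, 52.3, 53.4 and 51.2 CPM and its old liver libraries at 44.4, 67.3, 61.5 and 70.5 CPM, so the ages overlapped. All kidney libraries, at 120 CPM or more, lay above all liver and fibroblast libraries, which were at 95.2 CPM or less. That order holds in CPM only, since after TMM scaling over all 38 libraries (a normalization that centres the bulk of genes) the mean was 81.7 in DMSO kidney and 109 in DMSO liver. Keap1, on chromosome 9 from 21229730 to 21239361, ranged only 1.94-fold over the 10 group means, from 59.1 CPM in young liver to 115 CPM in fibroblasts with 3C, whereas after TMM scaling its lowest mean was 44.2 in 3C kidney and its highest 117 in DMSO liver. Of its exon bases 10.87% are shared with the antisense gene Gm16754, and the counts take no account of strand, so the reads of the pair cannot be told apart there.

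**Figure D1:**
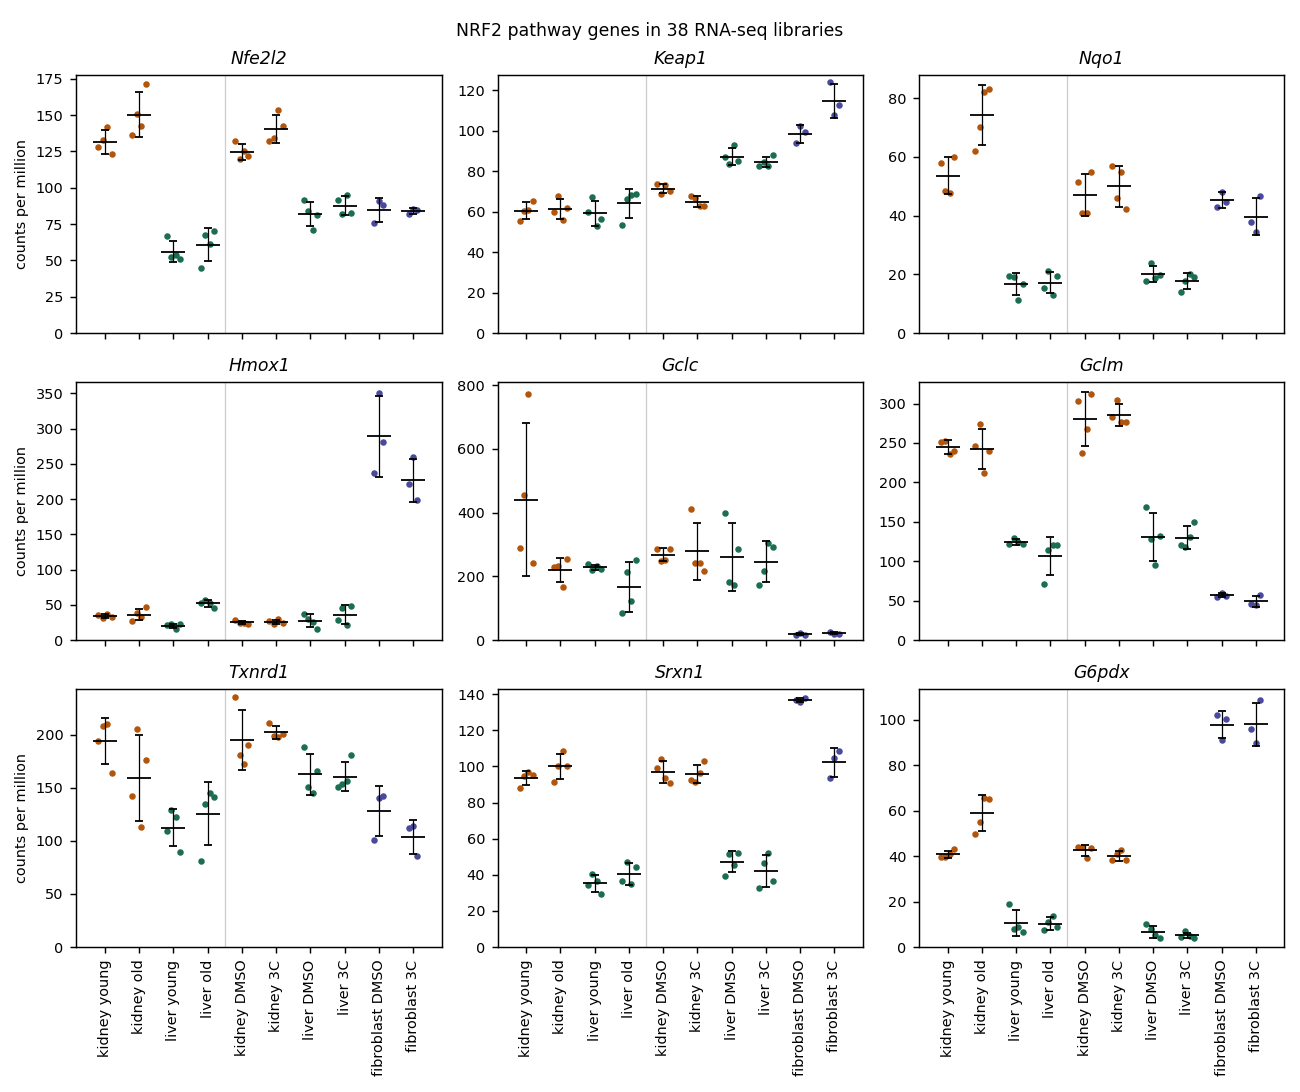
CPM of the 9 genes in each of 38 RNA-seq libraries (points), with group means (horizontal lines) and SD (bars), for kidney (orange), liver (green) and fibroblasts (blue); the grey line parts the untreated set from the DMSO and 3C set. Hmox1 reached 199 to 350 CPM in fibroblasts against 57.5 CPM or less in every tissue library, and Gclc showed the opposite order.

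The target genes had distinct tissue patterns. Hmox1, the inducible heme oxygenase that splits heme into biliverdin, iron and carbon monoxide (chromosome 8, 75093621 to 75100589), was highest in fibroblasts, with 237, 350 and 281 CPM with DMSO, and spanned 14.1-fold over the group means. Gclc, the catalytic subunit of glutamate-cysteine ligase, the enzyme of the rate-limiting step of glutathione synthesis (chromosome 9, 77754535 to 77794485), ran the other way, from 440 ± 240 CPM in young kidney to 17.8 CPM in fibroblasts with DMSO, a 24.7-fold span. After TMM scaling young liver had the highest mean (399.5 against 365 in young kidney), and fibroblasts with DMSO again the lowest (13.9). No fibroblast library of Gclc, at 24.9 CPM or less, came near a tissue library, of which the lowest was 83.7 CPM. Gclm, the modifier subunit of the same enzyme (chromosome 3, 122245557 to 122270732), fell into 3 bands of libraries that did not overlap, with 212 to 312 CPM in kidney, 71.0 to 169 CPM in liver and 44.7 to 60.0 CPM in fibroblasts. After TMM scaling the kidney libraries (153 to 206) lay within the range of the liver libraries (142 to 237), and only the fibroblasts (33.0 to 46.3) stayed apart.

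G6pdx, glucose-6-phosphate dehydrogenase, the entry enzyme of the pentose phosphate pathway and a source of NADPH (chromosome X, 74409483 to 74429194), had its bands in another order. Its libraries held 89.8 to 108 CPM in fibroblasts, 38.4 to 65.7 CPM in kidney and 3.9 to 19.0 CPM in liver. The highest liver value came from young liver replicate 1, whose group's other libraries had 6.8 to 9.0 CPM. With TMM scaling kidney (25.3 to 56.8) and liver (5.1 to 31.6) overlapped. Exons of Ikbkg on the opposite strand cover 13.57% of its exon bases, and its retrocopy G6pd2 had 1 read in all libraries together. Nqo1, a quinone reductase (chromosome 8, 107388225 to 107403206), had 34.4 CPM or more in every kidney and fibroblast library and 24.0 CPM or less in every liver library. Srxn1, sulfiredoxin, which repairs over-oxidised peroxiredoxins (chromosome 2, 152105516 to 152111376), likewise had 88.1 CPM or more outside liver and 52.1 CPM or less in it. With TMM scaling the liver libraries of Nqo1 reached 32.5 and those of Srxn1 74.4, above the lowest kidney libraries (26.4 and 59.1). Txnrd1, the cytosolic thioredoxin reductase (chromosome 10, 82833951 to 82897712), spanned 1.94-fold in CPM, and the ranges of all neighbours in the order of its 10 group means overlapped, but after TMM scaling its means ran from 77.5 in fibroblasts with 3C to 219.9 in 3C liver. Between neighbours in the same order for the other genes, 1 of 9 steps was free of overlap for Gclc, 2 for Nfe2l2, Nqo1, Hmox1 and Srxn1, 3 for Gclm and G6pdx and 4 for Keap1.

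Per kilobase of exon, which allows genes to be set against each other, the leading member changed with the source. As a share of the 9 genes' summed CPM per kilobase, Gclc made up 33.6% in young kidney and 37.5% in young liver but 1.3% in DMSO fibroblasts, where Hmox1 made up 46.9%. Hmox1's share was 7.2% in young liver and 18.5% in old liver, and 6.0% and 6.9% in young and old kidney. G6pdx stayed at 2.1% and 2.0% of the sum in young and old liver and made up 4.1% and 6.5% in kidney. These shares do not depend on how libraries were scaled.

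Across the 10 group means of log2 CPM, the genes whose pattern was most like that of each member were found among 15594 genes by Pearson's r, given as a description over groups that share depth and tissue. For Nfe2l2 they were Slc16a4, Wbp2 and Degs2 (r = 0.987, 0.984 and 0.983), for Keap1 Fbxw9, Mmab and Efna3 (0.977, 0.973 and 0.970), for Nqo1 Ndufv3, Med28 and Pfdn5 (0.993, 0.988 and 0.988) and for Hmox1 Stt3a, Lrrc59 and Tmem167 (0.998, 0.991 and 0.988). For Gclc they included Ptprd and Sord (0.993 and 0.992), for Gclm Cobl, Spint2 and Tspan33 (0.998, 0.995 and 0.995), for Txnrd1 Homer1, Pcsk5 and Zfp619 (0.983, 0.979 and 0.978), for Srxn1 Mrpl10, Mrps14 and Mcm2 (0.997, 0.996 and 0.995) and for G6pdx they included Pcnp and Nucb2 (0.997 and 0.996). No member was among the 3 nearest genes of another member. With group means removed, the r of the 36 pairs of members over 38 libraries ran from -0.247 for Srxn1 with Hmox1 to 0.614 for Txnrd1 with Gclm, with a median of 0.205, and Nfe2l2 had its highest values with Txnrd1 (0.592), Gclm (0.574) and Gclc (0.571). Of the 36 pairs, 33 were positive. These r are of log2 CPM without TMM scaling, so the scaling of a library bears on all members at once. Its part in these r was not tested.

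With age in kidney, G6pdx rose and no other member passed the test. G6pdx stood at 39.6, 39.5, 41.1 and 42.9 CPM in young kidney and at 49.9, 54.9, 65.7 and 65.1 CPM in old kidney. The groups did not overlap, and the change was 1.42-fold (95% interval 1.16 to 1.72; log2 0.50 ± 0.13 SE; adjusted p = 0.0319 by edgeR's quasi-likelihood test, Benjamini-Hochberg). The call covered 1 of 9 members where 11.5% of 14495 genes were called. Among the fits without 1 library it was lost without young kidney replicate 1, 2 or 3 or old kidney replicate 3 or 4 (adjusted p from 0.00752 to 0.109 over 16 alternatives in edgeR and DESeq2), and it held without old kidney replicate 2 (log2 0.56, adjusted p = 0.0165 by edgeR).

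Nqo1 had 58.0, 48.4, 47.8 and 60.0 CPM in young kidney and 61.9, 70.1, 82.0 and 83.0 CPM in old kidney, but its change of 1.35-fold (95% interval 1.09 to 1.68) missed the threshold (adjusted p = 0.0720 by edgeR). Over 16 alternatives in edgeR and DESeq2 its adjusted p ran from 0.0374 to 0.294. Gclc in young kidney spread from 243 and 289 to 456 and 773 CPM, against 166 to 254 CPM in old kidney. Its log2 change of -1.03 ± 0.32 SE also missed the threshold (adjusted p = 0.0640 by edgeR), while DESeq2 called both Nqo1 and Gclc (adjusted p = 0.0441 and 0.00766). The other 6 members had log2 changes between -0.33 for Txnrd1 and 0.16 for Nfe2l2. After leaving out old kidney replicate 2, the library with hepatocyte RNA, edgeR also called Nqo1 (log2 0.49, adjusted p = 0.0374) and Txnrd1 (log2 -0.44, adjusted p = 0.0430). Over 16 alternatives in edgeR and DESeq2 the adjusted p ran from 0.00766 to 0.149 for Gclc and from 0.0430 to 0.351 for Txnrd1. The 11.5% of genes called belongs to the main fit. The calls by DESeq2 and without replicate 2 stand here without a share of all genes. The median log2 change was 0.04 over the members and 0.02 over all genes tested, and 2 of 9 members had groups free of overlap in the scaled values (Gclc and G6pdx), against 17.8% of genes.

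**Figure D2:**
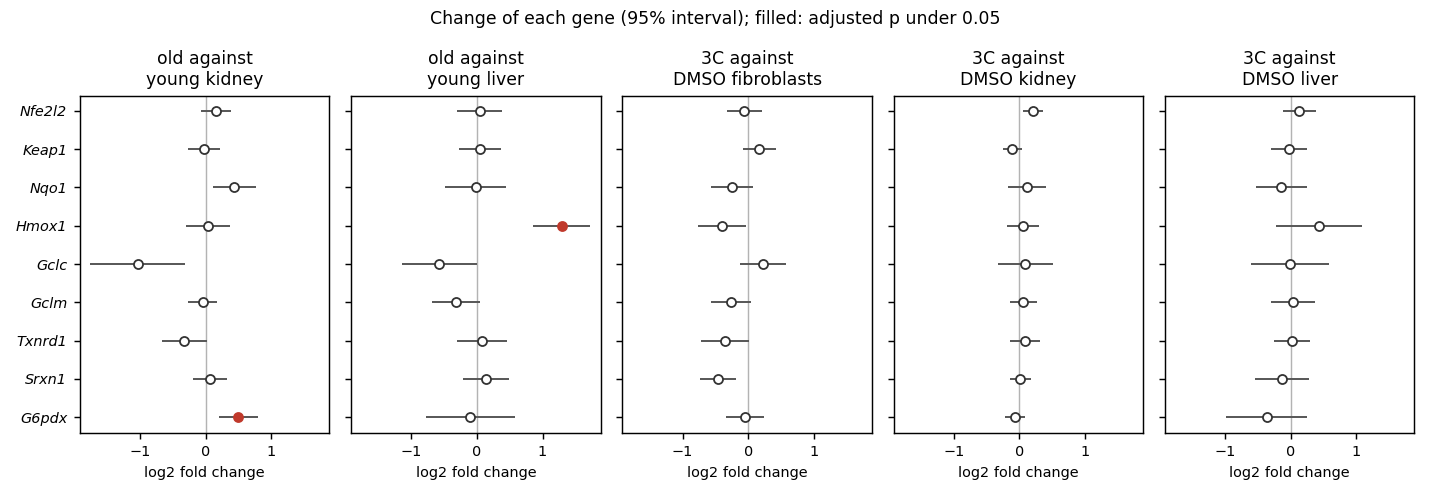
Log2 fold change (points) with its 95% interval (lines) from edgeR for the 9 genes in 5 comparisons; red points passed an adjusted p of 0.05. Hmox1 in old liver (log2 1.29) and G6pdx in old kidney (log2 0.50) are the points that passed.

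Of 74 other genes of the pathway in 8 lists, 72 were tested in the kidney age comparison, and 4 rose and 6 fell, a share near the 11.5% called among all genes. The risers were Maff, a small MAF partner of NRF2 (log2 1.34), Akr1b8, an aldo-keto reductase (log2 1.50), Ephx1, the microsomal epoxide hydrolase (log2 0.97), and Blvrb, a biliverdin reductase (log2 0.75). The genes that fell were the NADPH-forming enzymes Me1 (log2 -0.66) and Idh1 (log2 -0.60), the thioredoxin-binding Txnip (log2 -0.68), the export pumps Abcc2 (log2 -0.91) and Abcc4 (log2 -0.79) and Lpin1, a phosphatidate phosphatase (log2 -0.68). In the same libraries 8 of 9 tested macrophage markers and 6 of 6 B and plasma cell markers rose, with summed levels of 149 to 173 CPM (macrophage) in young and 688 to 1584 CPM in old kidney, and of 5.6 to 11 CPM (B and plasma cell) against 375 to 559 CPM. Their part in the changes above was not tested.

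With age in liver, Hmox1 rose 2.45-fold and was the member called. It stood at 21.0, 22.3, 16.2 and 22.5 CPM in young liver and at 53.0, 57.5, 52.2 and 45.9 CPM in old liver, and the groups did not overlap. The 95% interval of the fold was 1.83 to 3.28 (log2 1.29 ± 0.19 SE; adjusted p = 0.00852 by edgeR), and 1 of 9 members was called where 2.46% of 12537 genes were. The call held under all 16 alternatives, with adjusted p from 4.9e-07 to 0.0458 in edgeR and DESeq2 and log2 changes from 1.17 to 1.44 when 1 library was left out.

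Macrophages of the liver take up and break down heme, and their markers were higher in the old libraries as well. The 14 macrophage markers summed to 779 to 1150 CPM in young and 1366 to 2627 CPM in old liver, none of them was at 0 in all libraries of either liver group, and 4 of 14 rose (Lyz2 log2 1.43, Cd5l 1.38, Cd68 1.20, Vsig4 1.11; edgeR). Hepatocyte markers summed to 131717 to 171176 CPM in young and 83909 to 126195 CPM in old liver, without overlap, but 0 of the 6 were called by edgeR (median log2 -0.47). In old liver Hmox1 was at 53.0, 57.5, 52.2 and 45.9 CPM where the macrophage markers were at 1739, 2627, 2627 and 1366 CPM. In kidney the macrophage marker sum was at most 173 CPM in young and at least 688 CPM in old libraries, with Clec4f and Vsig4 at 0 in all young ones. There Hmox1 was at 34.2 ± 2.71 CPM in young and 36.2 ± 8.31 CPM in old kidney (SD, n = 4 each). The highest Hmox1 value of old kidney, 46.9 CPM, was in the library with the most macrophage marker, 1584 CPM. The part of either marker list in the Hmox1 difference was not tested.

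**Figure D3:**
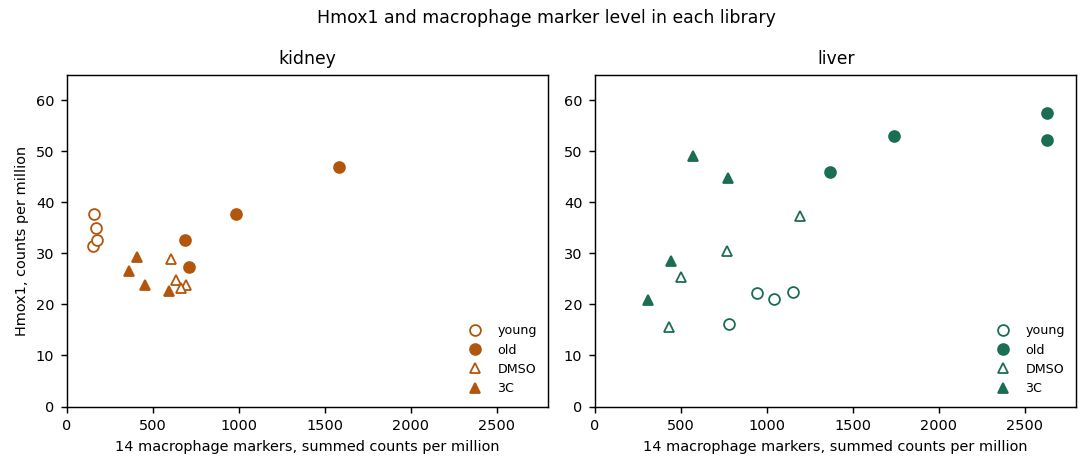
Hmox1 level against the summed level of 14 macrophage markers, both in CPM, in each kidney (left) and liver (right) library. In the untreated liver set the old libraries lie at 45.9 CPM of Hmox1 or more and 1366 CPM of markers or more, while the old kidney libraries have more marker than the young ones at 27.4 to 46.9 CPM of Hmox1.

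The other members did not pass in liver. Gclm was at 122, 130, 125 and 122 CPM in young and 71.0, 115, 121 and 120 CPM in old liver, free of overlap, but its log2 change was -0.31 ± 0.16 SE (adjusted p = 0.412 by edgeR). Gclc spread over 83.7 to 250 CPM in old liver against 220 to 238 CPM in young liver (log2 -0.57 ± 0.25 SE, adjusted p = 0.324 by edgeR). Old liver replicate 1 was the lowest of its group for Nfe2l2, Keap1, Gclc, Gclm, Txnrd1 and G6pdx in CPM, but not for Hmox1. Nfe2l2 itself changed by log2 0.05 ± 0.15 SE and Keap1 by 0.05 ± 0.14 SE. The member median was 0.05 and that of all genes 0.00, and 2 of 9 members (Hmox1 and Gclm) had groups free of overlap against 9.95% of genes. Of 71 other pathway genes tested, 2 rose and none fell, where 2.46% of all genes were called, namely Abcc4 (log2 1.53) and Cd36, a fatty acid carrier (log2 1.33). Of the 7 heme and iron genes, which include the biliverdin reductases and the ferritin chains Fth1 and Ftl1, the log2 changes in liver lay between -0.28 for Blvrb (adjusted p = 0.750 by edgeR, the lowest of the list) and 0.22 for Blvra. B and plasma cell markers summed to 4.0 to 4.8 CPM in young and 18.9 to 81.1 CPM in old liver.

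The age effect on Hmox1 differed between the tissues. The interaction in a joint edgeR fit of the 16 libraries gave a log2 difference, liver minus kidney, of 1.30 ± 0.22 SE (adjusted p = 0.00858), with 1 of 9 members called against 1.72% of 15036 genes. The call held in all 24 alternatives (adjusted p from 0.000112 to 0.0304 in edgeR and DESeq2). G6pdx, called in kidney alone, had an interaction of log2 -0.57 ± 0.35 SE that did not pass (adjusted p = 0.498 by edgeR), so a difference between the tissues was not shown for it. Abcc4 had an interaction of log2 2.38, since it fell in kidney and rose in liver.

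With 3C, no member passed the test in any of 3 sources. In fibroblasts 0 of 9 members were called by edgeR (2 at an unadjusted p under 0.05, and 1 by DESeq2) where 4.22% of 13449 genes were. Srxn1 had 137, 135 and 138 CPM with DMSO and 93.5, 105 and 109 CPM with 3C. The groups lay well apart, and the fold was 0.724 (95% interval 0.605 to 0.867; adjusted p = 0.0533 by edgeR), just outside the threshold. DESeq2, no filter on low counts and a correction for length and GC content each put it inside (adjusted p = 0.00959 by DESeq2, and 0.0382 and 0.0169 by edgeR), as did leaving out the 3C replicate 3 (adjusted p = 0.0448 by edgeR).

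Hmox1 had 237, 350 and 281 CPM with DMSO and 222, 260 and 199 CPM with 3C, which overlap (log2 -0.40 ± 0.16 SE, adjusted p = 0.190 by edgeR). Keap1 went from 93.8, 103 and 99.3 CPM to 124, 108 and 113 CPM without overlap (log2 0.17 ± 0.11 SE, adjusted p = 0.414 by edgeR). Of the members, 7 had negative and 2 positive log2 changes, with a median of -0.24 against 0.01 over all genes tested, and 2 of 9 had groups free of overlap against 25.5% of genes. Among 65 other pathway genes tested, 3 rose, all of them conjugation and carbonyl enzymes (Aox1 log2 0.68, Gsta4 0.66, Gstm1 0.66), and 4 fell, where 4.22% of all genes were called. These were Chac1, which degrades glutathione (log2 -0.84), the mitochondrial folate enzymes Mthfd2 (log2 -0.74) and Shmt2 (log2 -0.50), and Maff (log2 -0.47). The macrophage markers Lyz2 and Csf1r fell too (log2 -1.35 and -0.94), and the list summed to 288 to 372 CPM with DMSO and 117 to 178 CPM with 3C, with 7 of the 14 (Cd5l, Marco, Clec4f, Spic, Timd4, Cd163 and Vsig4) at 0 in all DMSO libraries. The part of such cells in these changes was not tested.

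In kidney with 3C no gene at all was called by edgeR (0.0% of 14974; 1786 genes at an unadjusted p under 0.05; 66 higher and 148 lower by DESeq2). Of the members, 0 of 9 were called by either tool, and 1 had an unadjusted p under 0.05. This was Nfe2l2, at 132, 120, 125 and 122 CPM with DMSO and 132, 134, 154 and 142 CPM with 3C, a fold of 1.15 (95% interval 1.05 to 1.26; adjusted p = 0.257 by edgeR). In the TMM-scaled values it was the 1 of 9 members with groups free of overlap, against 6.94% of genes, while in CPM the groups of Keap1 did not overlap either (68.7 to 73.7 CPM with DMSO, 62.6 to 67.7 CPM with 3C). The 95% intervals of all 9 folds lay between 0.806 and 1.41. In the same libraries macrophage markers summed to 604 to 695 CPM with DMSO and 363 to 594 CPM with 3C, and fibroblast markers to 501 to 662 CPM and 246 to 440 CPM, without overlap in either list, and their part in these values was not tested. Gclc had 411 CPM in 3C replicate 1 and 217 to 243 CPM in the other 3C libraries.

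In liver with 3C no gene was called by edgeR either (0.0% of 13042; 436 genes at an unadjusted p under 0.05; 4 higher and 2 lower by DESeq2), and 0 of 9 members reached an unadjusted p under 0.05 or were called by DESeq2. Hmox1 spread widely, with 37.3, 30.4, 25.4 and 15.5 CPM with DMSO and 28.5, 44.8, 20.8 and 49.0 CPM with 3C, and its fold of 1.35 had an interval of 0.867 to 2.10. In the same libraries the macrophage markers summed to 1189, 767, 499 and 430 CPM with DMSO and to 440, 771, 309 and 567 CPM with 3C. The intervals of the 9 folds ran from 0.512 to 2.10, wider than in kidney. The interaction of 3C and tissue called 0 of 9 members and 0.0% of 15526 genes by edgeR (0 members and 554 genes at an unadjusted p under 0.05; 0 genes by DESeq2). No member had groups free of overlap in liver, against 2.22% of genes.

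Between kidney and liver most genes differed, and the direction of several members depended on scaling. Scaled by TMM, liver libraries had factors of 0.496 to 0.821 and kidney libraries of 1.157 to 1.553, and dropping the factors moved the median log2 difference of all genes in young mice from 0.08 to 1.16. The values below are TMM-scaled and thus relative to the other genes. In young mice 4 of 9 members were called where 65.4% of 14057 genes were: G6pdx (log2 0.87), Nqo1 (0.61) and Srxn1 (0.33) higher in kidney, under total-count scaling too, and Keap1 lower (-1.05; 0.03 with total counts, so that its direction flips). With the replicate number as a block, 6 were called, with Hmox1 (log2 -0.34, adjusted p = 0.0381 by edgeR) and Txnrd1 (log2 -0.29, adjusted p = 0.0129 by edgeR) added, and both of these turn to higher in kidney with total counts (0.74 and 0.79). The block rests on a pairing seen in these data and not given by the labels. The 65.4% of genes is the share in the fit without the block. Srxn1's call was lost without young kidney replicate 2 or 3 or young liver replicate 1, and Gclc was called without young kidney replicate 3 (log2 -0.56).

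In old mice 5 of 9 members were called where 54.9% of 14578 genes were. G6pdx (log2 1.45) and Nqo1 (1.03) were higher in kidney, and Hmox1 (-1.64), Keap1 (-1.15) and Txnrd1 (-0.74) lower. With total counts Txnrd1 turns positive (0.35), Keap1 is at -0.06 and no longer called (adjusted p = 0.680 by edgeR), and Hmox1 is at -0.53. In the DMSO mice 6 of 9 were called where 71.9% of 14981 genes were. G6pdx was higher in kidney (log2 1.67), and Keap1 (-1.29), Hmox1 (-1.10), Gclc (-0.92), Txnrd1 (-0.72) and Nfe2l2 (-0.38) were lower, with total counts turning Nfe2l2 (0.61), Txnrd1 (0.26) and Gclc (0.05) to higher and leaving Hmox1 at -0.11, not called (adjusted p = 0.635 by edgeR). On the plain CPM scale 9 of 9 group means were higher in young kidney than in young liver, and 4 of 9 after TMM scaling of all 38 libraries. Under both scalings the log2 differences of G6pdx, Nqo1 and Srxn1 were positive in all 3 comparisons, though Srxn1 had values of 0.23 and 0.04 that did not pass with TMM in the old and the DMSO mice, and Nqo1 0.24 in the DMSO mice.

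At the chromatin level, 8 of 9 genes had a peak within 1 kb of their start in all 6 kidney and all 6 liver libraries, which held for 56.3% and 50.4% of 21924 coding genes. Txnrd1 had a peak near its most upstream start in 1 library only, while a start 25.1 kb further in was open in 12 of 12. The value used is the fold enrichment that the peak caller gave the strongest peak over its local background, and 3 libraries against 3 cannot give an exact permutation p below 0.1.

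At the promoter, Gclm was the member whose old libraries lay above the young ones in both tissues. Its promoter peak had fold enrichments of 6.68, 6.11 and 6.41 in young and 7.85, 7.63 and 8.16 in old kidney, and of 4.87, 4.21 and 4.49 in young and 6.36, 6.19 and 6.89 in old liver. The exact permutation p was 0.1 in each tissue, the smallest possible. Srxn1 was also higher in old kidney, with 6.25, 6.06 and 6.60 against 7.33, 6.73 and 6.92, and Gclc in old liver, with 2.28, 2.37 and 2.70 against 3.97, 3.53 and 3.87 (exact permutation p = 0.1 each). So 2 of 9 members were higher in old kidney and 2 of 9 in old liver, against 10% and 5.15% of coding genes, and none of the 8 with a peak in all libraries was lower, against 6.18% and 3.85%. These percentages are over all 21924 coding genes, of which 56.3% in kidney and 50.4% in liver had a peak in all 6 libraries. Txnrd1, without a peak at its most upstream start in liver, had lower fold enrichment at its start 25.1 kb further in, with 4.39, 4.86 and 5.82 in young and 3.03, 3.71 and 4.32 in old liver. With each peak expressed as its percentile within the library, Srxn1 no longer lay apart in kidney and Keap1 was lower in old kidney. Gclc's difference was lost when the start of any transcript was allowed, and edgeR called the RNA of neither Gclm nor Gclc with age in either tissue. Other regions of Gclm, of 5 in all, went the other way. Those at -9.6, 7.1 and 7.8 kb from its start were lower in old liver and that at 1.9 kb in old kidney. The Nfe2l2 region at 21.5 kb was higher in old libraries of both tissues.

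**Figure D4:**
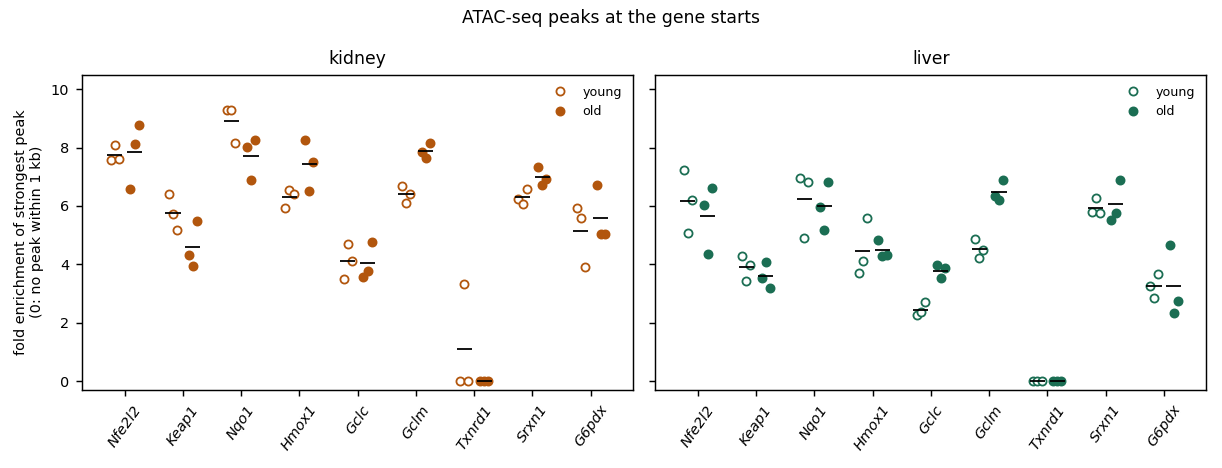
Fold enrichment of the strongest ATAC-seq peak within 1 kb of each gene's most upstream start in kidney (left) and liver (right); open points are 3 young and filled points 3 old libraries, lines are means, and 0 means no peak. Gclm is higher in old libraries of both tissues (means of 6.40 and 7.88 in kidney, 4.52 and 6.48 in liver).

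Around Hmox1, 9 regions within 20 kb of the start or in the gene were open in at least 3 libraries, 4 of them in all 12. In liver, 3 of the 9 had lower and 2 higher fold enrichment in all old than in all young libraries, while the promoter peak itself overlapped (3.70, 4.13 and 5.60 young, 4.83, 4.30 and 4.34 old). The region at 9.7 kb upstream, printed above with its 3 ARE cores, had 4.08, 5.57 and 4.28 in young and 3.66, 4.02 and 2.76 in old liver. The region at 3.9 kb upstream, with 2 cores, had 2.47, 3.06 and 2.91 in young and 3.22, 3.18 and 3.22 in old liver. The region at 15.2 kb upstream, which had no peak in any kidney library, had 6.35, 5.12 and 5.01 in young and 2.92, 2.96 and 2.74 in old liver. The region 15.8 kb downstream of the start had 10.3, 9.16 and 9.50 in young and 5.90, 6.90 and 7.73 in old liver. A region at 10.1 kb had no peak in young liver and 2.29, 3.17 and 2.52 in old liver. In kidney the regions at 9.7 and 3.9 kb overlapped between the ages, and the small region at 6.3 kb upstream had peaks in 3 of 3 young libraries and in no old one. Over the 75 regions of all 9 members, 9 were higher and 12 lower in old liver and 5 higher and 9 lower in old kidney, against 4.81% and 9.71% of 141632 regions in liver and 3.23% and 13% in kidney.

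**Figure D5:**
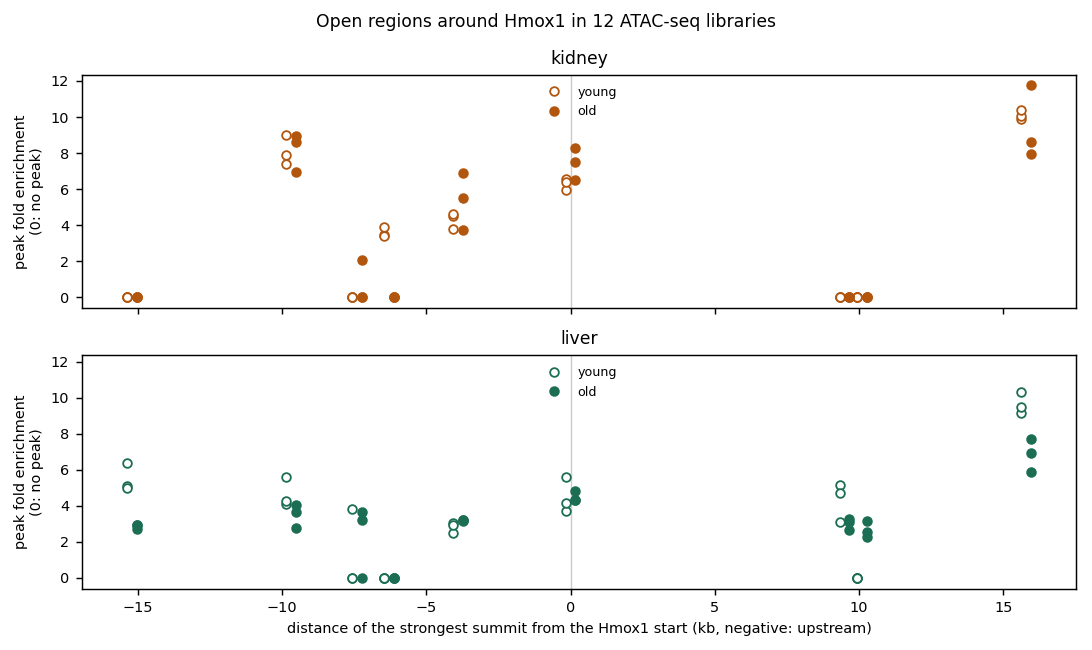
Fold enrichment of the strongest peak in each of 9 open regions around Hmox1, by distance from its start in kb, in kidney (top) and liver (bottom), with 3 young (open) and 3 old (filled) libraries beside each other at each region. In liver the regions 15.2 and 9.7 kb upstream and 15.8 kb downstream are lower in the old libraries and those at -3.9 and 10.1 kb higher.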

How the data were processed

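RNA was counted in 38 libraries and open chromatin in 12. Per the labels and the study's methods, the authors trimmed reads (Trimmomatic 0.39), aligned them to mm10 (HISAT2 2.2.1) and deposited raw counts per gene from HTSeq 0.12.4, without strand. The count files of the 2 RNA sets differ. Unaligned, multiply aligned and low-quality reads were at 0.0% in every DMSO and 3C library. In the untreated libraries 7.61 to 13.0% of reads were multiply aligned. Orders and patterns over all 10 groups span both sets. For ATAC-seq the authors aligned with Bowtie2 2.3.5.1 and ran MACS2 on every library separately. The deposited peak files give the fold enrichment, a ratio over local background, and −log10 p and q values. No replicates were pooled.

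Counts were fitted over all genes with edgeR 4.0.16 (quasi-likelihood F test, TMM, filterByExpr with a minimum count of 10) in R 4.3.3, with calls made below an adjusted p (Benjamini-Hochberg) of 0.05. The study's further limit of 2-fold, DESeq2 1.42.0, other filters and scalings, a length and GC trend, the replicate number as a block and fits without 1 library at a time were alternatives. The script was tested on simulated data. Totals were 14.2 to 43.7 M counts, and a fold has the precision of its 95% interval. Groups came from the labels. The members and lists were chosen with earlier results of these data known. All 9 members were named, and of each other list up to 3 genes per direction with the largest change among called genes whose groups did not overlap. Uncalled genes outside the members, and Vsig4 in old liver, were named after their values were seen. Same-numbered young kidney and young liver libraries deviated together (r = 0.120, 0.219, 0.104 and 0.452), a pairing seen in the data and not in the labels, and the blocked value stands beside that comparison. Young liver replicate 2 had a higher r with a young kidney library of another number (0.241). In the DMSO tissues the r were 0.089, 0.126, 0.012 and 0.012, and each other comparison had a negative r. No blocked value stands beside those comparisons. Peaks were assigned within 1 kb of a gene's most upstream start. For Gclc and for G6pdx, 1 of the 3 genes with the most similar pattern is not reported here.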

Additional observations from a re-analysis of the deposited data

Results flagged for a closer look

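The age effect on Hmox1 differed between liver and kidney, with a log2 difference of 1.30 in the joint edgeR fit (adjusted p = 0.00858).

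In 6 of 72 groups of 4 libraries, 1 library lay far from the others in CPM by Dixon's criterion, which chance meets in about 1 in 20 groups. Old liver replicate 1 was low for Keap1 (53.5 CPM, next 66.1), Gclm (71.0 CPM, next 115) and Txnrd1 (81.3 CPM, next 135). Young liver replicate 1 was high for Nfe2l2 (66.5 CPM, next 53.4). The 3C kidney replicate 1 was high for Gclc (411 CPM, next 243), and the DMSO kidney replicate 3 was low for G6pdx (39.0 CPM, next 43.5).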

How the results depend on the processing

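Over 720 values of single members under other settings, 653 kept their direction and side of the threshold, 4 lost and 31 gained significance and 32 changed sign, and with 1 library left out these were 792, 8, 10 and 36 of 846. The cause was not tested. In old against young kidney, 1 member was called, 3 by DESeq2, 2 with a length and GC trend, 0 over 2-fold and 0 with a replicate block, with or without that trend. Leaving out 1 library gave 0 to 3 (0 without young kidney replicate 1, 2 or 3 or old kidney replicate 3 or 4, 3 without young kidney replicate 4 or old kidney replicate 2). In fibroblasts, 0 were called, and 1 by DESeq2, without a filter and with the trend, alone or with the block, and 0 to 1 with 1 library left out (1 without 3C replicate 3). In young kidney against liver, 4 were called, 6 by DESeq2, 8 with total counts, 1 over 2-fold and 3 to 5 with 1 library left out. In the DMSO tissues 6 were called and 3 over 2-fold, and in the old tissues 5, with 7 by DESeq2, 4 over 2-fold and 5 to 6 with 1 library left out. The main counts have their shares of all genes above. Those under other settings stand without such a share, so a higher count does not set the members apart from other genes. Promoter peaks lay apart for 2 members in kidney (2 to 4 with 1 library left out, 4 without young or old replicate 3) and 2 in liver (2 to 3, and 1 with the start of any transcript). Members higher in young kidney numbered 9 in CPM and 4 with TMM. The block changed the calls of G6pdx in old kidney and of Hmox1 and Txnrd1 between young tissues and no other. In the other comparisons same-numbered libraries correlated from -0.310 to 0.334, and the replicate number was not taken as a pairing.

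Signs changed at these log2 values. With total counts they were 0.0188 for Keap1 in old kidney, 0.0459 for Nqo1 in old liver, 0.0025 for G6pdx in fibroblasts, -0.0166 for Srxn1 in 3C kidney and, in 3C liver, -0.0112 for Gclm and -0.0208 for Txnrd1. Between young tissues they were 0.0346 for Keap1, 0.74 for Hmox1, 0.95 for Gclc, 0.97 for Gclm and 0.79 for Txnrd1, between old tissues 0.40 for Gclc and 0.35 for Txnrd1, and between DMSO tissues 0.61 for Nfe2l2, 0.0476 for Gclc and 0.26 for Txnrd1. With the trend, and with the trend and the replicate block, they were -0.24 and -0.28 for Hmox1, 0.171 and 0.173 for Gclm and -0.125 and -0.127 for Srxn1 in old kidney, and 0.0490 and 0.0444 for Keap1 and -0.0165 and -0.0199 for Txnrd1 in 3C liver. Between young tissues they were 0.0371 for Gclc with the trend and 0.0418 and 0.0477 for Gclm. Gclc in 3C liver was 0.0138 with the block and 0.0078 with both, and Nqo1 in old liver 0.0009 with a mean of at least 1 CPM.

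With 1 library left out, these ranges crossed 0: in old kidney Keap1 -0.0804 to 0.0474, Hmox1 -0.0817 to 0.14 and Srxn1 -0.0105 to 0.10, in old liver Nfe2l2 -0.0293 to 0.12, Nqo1 -0.16 to 0.0936 and G6pdx -0.27 to 0.30, and in fibroblasts G6pdx -0.14 to 0.0065. In 3C kidney they were Hmox1 -0.0060 to 0.14, Gclc -0.18 to 0.19, Gclm -0.0163 to 0.11 and Srxn1 -0.0231 to 0.0469, and in 3C liver Keap1 -0.0653 to 0.0614, Gclc -0.15 to 0.22, Gclm -0.0541 to 0.14 and Txnrd1 -0.0571 to 0.0637. Gclc between young tissues ran from -0.56 to 0.0495, Srxn1 between DMSO tissues from -0.0982 to 0.0751, and in the interaction of 3C and tissue Gclc from -0.24 to 0.15 and Gclm from -0.10 to 0.0782.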
